A study of Mus musculus with 7 samples.

Results

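Oxidative phosphorylation genes encode the respiratory chain and the ATP synthase of mitochondria. They were taken by name: the nuclear genes whose symbols start with *Nduf* (followed by a, b, c, s or v), *Uqcr*, *Cox4* to *Cox8* or *Atp5*, the genes *Sdha* to *Sdhd*, and the protein-coding genes of the mitochondrial chromosome. The rule found 105 of the 48440 genes listed, 92 nuclear and 13 mitochondrial, after 6 symbols with -ps were dropped. By role, the nuclear genes divide into 7 core subunits, 29 accessory subunits and 7 assembly factors of complex I, 4 genes of complex II, 8 of complex III, 20 of complex IV, 15 of complex V and 2 factors named with complex V that are not subunits. *Ndufa4* and its paralog *Ndufa4l2* were counted with complex IV, to which *Ndufa4* is assigned.

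The study removed *Ptbp1*, which encodes an RNA-binding regulator of splicing, from retinal progenitors of the mouse and measured mRNA in whole retina at E16. WT carried Chx10-Cre alone, Het was Chx10-Cre;Ptbp1lox/WT and KO was Chx10-Cre;Ptbp1lox/lox, so that every library came from retinas with the Cre transgene. Cre was made as a fusion with GFP and is active in retinal progenitors, and its target was the promoter and first exon of *Ptbp1* between loxP sites. The 36 retinas were pooled into 7 libraries, 6 retinas for WT, 5, 5 and 6 for Het1, Het2 and Het3, and 4, 4 and 6 for KO1, KO2 and KO3.

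Libraries of a genotype are separate pools, so a p-value measures the spread between pools. Total counts ranged from 120593979 in Het2 to 171117305 in Het1. Levels are given as CPM with TMM factors, and SD is taken over the 3 libraries of a genotype. WT has a single library and is given as values without error. KO was compared with Het by edgeR's quasi-likelihood test, and a gene was called at a Benjamini-Hochberg adjusted p below 0.05 with a change of more than 1.2-fold. An exact permutation test of 3 libraries against 3 cannot give a p below 0.1.

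Electrons from NADH enter the respiratory chain at complex I and those from succinate at complex II, and pass through complexes III and IV to oxygen while protons are pumped out of the matrix at complexes I, III and IV. Complex V lets the protons return and makes ATP. Every complex except II joins nuclear subunits, imported from the cytosol, to subunits made within the mitochondrion from its own chromosome, and photoreceptors of the mature retina are among the cells with the highest use of oxygen.

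*Ptbp1* (ENSMUSG00000006498.16) was measured at 381 CPM in WT, at 210.3, 219 and 234 CPM in the Het libraries and at 27.9, 6.04 and 46.9 CPM in the KO libraries. The order of the genotypes fits the labels, with no overlap between Het and KO, and residual *Ptbp1* differed between the KO pools, lowest in KO2 and highest in KO3. Its paralog *Ptbp2* was at 338 CPM in WT, 428, 455 and 430.3 CPM in Het and 529, 549.8 and 538 CPM in KO, again without overlap.

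The tissue was checked with 16 genes of retinal identity. All 16 were above 1 CPM in each of the 7 libraries, and their summed level was 3988 CPM in WT, 3841, 3938 and 3944 CPM in Het and 3725, 3788 and 3705 CPM in KO. Each KO sum was below each Het sum. By edgeR 3 of the 16 were called lower and 1 higher, beside 7.22% of all genes called in either direction. An unadjusted p below 0.05 was reached by 9 of the 16 (56.25%), against 29.7% of all genes tested. Other tissues varied between pools. Of the 30 skeletal muscle genes tested, 29 were highest in Het1, where the list summed to 462 CPM against 15.05 to 17.6 CPM in the other libraries, with *Myh3* as the gene with the most counts, at 88.8 CPM in Het1. All 9 tested genes of pigmented cells were highest in the same library, at 654 CPM in sum against 24.4 to 101 CPM elsewhere, and *Pmel* had the most counts, at 321 CPM in Het1.

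Of the 105 oxidative phosphorylation genes, 99 had enough counts to be tested, 90 of the nuclear and 9 of the mitochondrial genes. By edgeR 3 of them were lower in KO, *Ndufaf2*, *Ndufb10* and *Uqcrq*, and 0 were higher. Over all 20019 genes tested, 643 (3.21%) were lower, 802 (4.01%) higher and 1445 (7.22%) called in either direction. At an unadjusted p below 0.05, 11 oxidative phosphorylation genes were lower and 3 higher, 14.1% of those tested against 29.7% of all genes tested. Of these 14, *Cox6a2* and *mt-Co3* had most of their counts in 1 Het library. DESeq2 called 6 lower and 1 higher, 7 of 102 beside 2070 of all 29515 genes with a count.

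The number of calls moved with single libraries, and so did that of all genes. Leaving out Het1 gave 1 call (1228 of all genes), Het2 gave 0 (386), Het3 gave 2 (496), KO1 gave 5 (1226) and KO2 gave 0 (612). Without KO3 it was 3 (1674 of all genes), of which only *Ndufaf2* was among those above.

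Most nuclear genes lay close to no change. The median log2 fold change over the 90 tested was -0.02, against -0.0047 over all genes tested. Among the 84 nuclear genes with a mean of at least 1000 counts, 76 (90.5%) lay within 1.2-fold of Het, as did 87.1% of the 10735 genes of all kinds at that depth. An unadjusted p below 0.05 was reached by 12 of these 84 (14.3%) and by 37.1% of the 10735. Every KO library was below every Het library in 11 of the 90 (12.2%) and above in 4 (4.44%), while over all genes tested these shares were 17.7% and 18.6%.

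**Figure D1:**
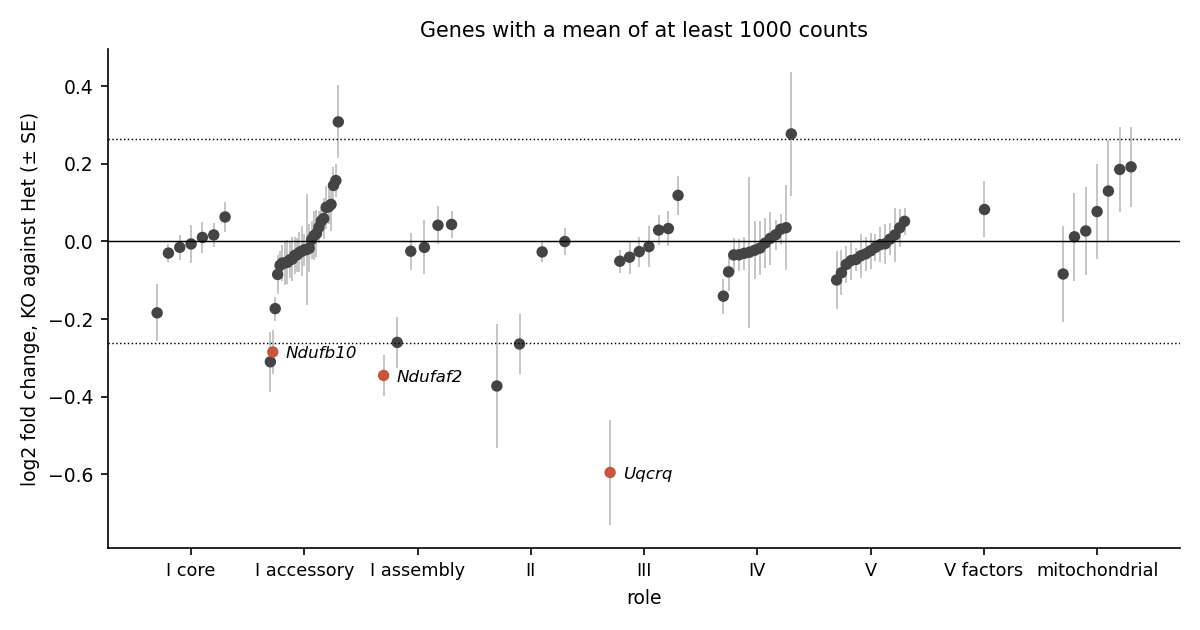
Log2 fold change of KO against Het (vertical axis, with standard errors from the edgeR fit of 3 Het and 3 KO libraries) for each oxidative phosphorylation gene with a mean of at least 1000 counts, grouped by role on the horizontal axis and sorted within a role. Dotted lines mark a 1.2-fold change, red points are the 3 called genes, and 76 of the 84 nuclear genes and all 7 mitochondrial genes lie between the lines.

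The nuclear genes summed to 8498 CPM in WT, to 8714, 8607 and 8633 CPM in Het1 to Het3 and to 8971, 8486 and 7959.8 CPM in KO. The Het pools lay close together, with KO1 above all of them and KO2 and KO3 below, so that the genotypes overlapped. The means were 8651 ± 55.7 CPM in Het and 8472 ± 506 CPM in KO (SD, n = 3 each), a log2 ratio of -0.03, which was 0.01 without KO3 and -0.07 without KO1. The difference of 179 CPM was smaller than the SD of the KO libraries. As a share of all counts, the nuclear genes took between 0.822% (KO3) and 0.889% (KO1).

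The mitochondrial genes summed to 12690.4 CPM in WT, to 16925, 16518.5 and 18018 CPM in Het and to 20330.4, 18957 and 14609 CPM in KO1 to KO3. WT was the lowest of the 7 libraries, KO1 and KO2 were the highest and KO3 was below each Het library. The means were 17154 ± 775 CPM in Het and 17966 ± 2987 CPM in KO (SD, n = 3 each), a log2 ratio of 0.07, which turned to -0.03 without KO1 and was 0.20 without KO3. From lowest to highest library the mitochondrial sum spanned 1.60-fold and the nuclear sum 1.13-fold.

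The ratio of mitochondrial to nuclear counts, which needs no scaling between libraries, was 1.49 in WT, 1.94, 1.92 and 2.09 in Het and 2.27, 2.23 and 1.84 in KO. KO1 and KO2 lay above and KO3 below the range of Het, and WT had the lowest ratio. On the log2 scale the ratio was 0.99 ± 0.07 in Het and 1.07 ± 0.17 in KO (SD, n = 3 each), a difference of 0.09, smaller than the spread of the KO pools. It was -0.05 when the mean of log2(CPM + 1) over genes replaced the sums, 0.03 without KO1 and 0.18 without KO3. The mean over genes weighs each gene alike and includes *mt-Co3*, at 24.2 CPM in Het3 and at most 0.294 CPM elsewhere. The part of *mt-Co3* was not tested. WT is 1 pool, so its lower ratio has no replicate check.

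**Figure D2:**
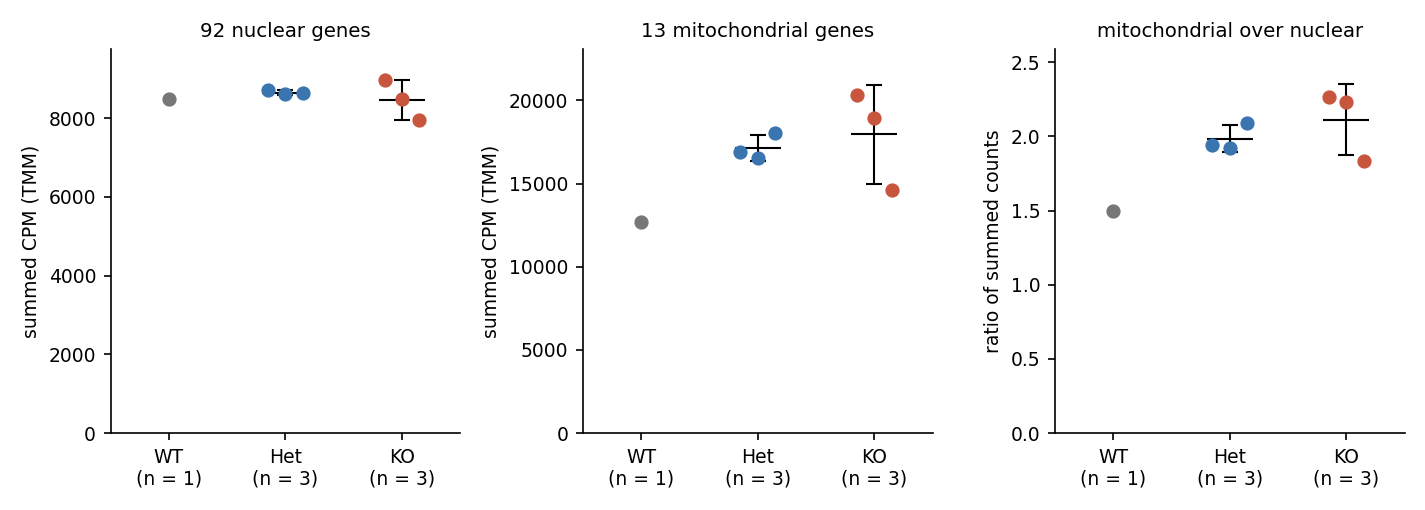
Summed CPM of the 92 nuclear genes (left) and the 13 mitochondrial genes (middle) and the ratio of their summed counts (right), with 1 point per library for WT (grey), Het (blue) and KO (red). Horizontal lines are means and bars are SD over 3 libraries, and the KO points lie on both sides of the Het points in each plot.

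The KO pools differed from each other in a direction that most nuclear genes shared. Of the 84 nuclear genes with a mean of at least 1000 counts, 51 (60.7%) were highest of the 6 Het and KO libraries in KO1 and 58 (69.0%) were lowest in KO3. Among all 10735 genes at that depth the shares were 24.1% and 26.5%. Against the Het mean, the median shift of the 84 genes was 0.06 in KO1, -0.02 in KO2 and -0.10 in KO3 on the log2 scale.

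Short genes shifted in the same direction. The 84 genes have a median transcript length of 921 bases, against 3299.5 over the 10735. The 502 genes of all kinds with a principal transcript under 1000 bases had median shifts of 0.03 in KO1, -0.04 in KO2 and -0.08 in KO3, and the 10224 longer genes of -0.0012, -0.0091 and -0.02. KO1 and KO2 were pools of 4 retinas and KO3 of 6. This comparison was made after the values were seen, and the part of transcript length or pool size in the shift was not tested.

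Blood, lens and pigment genes also separated KO3 from the other KO pools. The 10 erythroid genes summed to 340 CPM in WT, 289, 189 and 531 CPM in Het and 37.1, 24.5 and 298 CPM in KO, with *Hbb-bs* the most abundant and all 9 tested genes highest in Het3. The 16 lens genes summed to 19.1 CPM in WT, 29.4, 68.1 and 94.0 CPM in Het and 3.46, 8.99 and 78.2 CPM in KO, with *Cryaa* the most abundant and *Lim2* at 0 counts in every library. The pigment genes summed to 32.6, 24.4 and 99.96 CPM in KO. The KO pool with the lowest nuclear and mitochondrial sums held the most blood, lens and pigment RNA of the KO pools. The Het pools were arranged otherwise. Het3, with the most blood and lens RNA, had the highest mitochondrial sum of Het, at 18018 CPM. Het1, with the most pigment RNA, had the highest nuclear sum of Het, at 8714 CPM. WT, with the lowest mitochondrial sum, was within the range of Het for blood and below it for lens. The part of these cells in the sums was not tested, and in bulk RNA fewer cells of a type and less RNA per cell cannot be told apart.

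The 7 core subunits of complex I carry the flavin and iron-sulfur clusters that pass electrons from NADH to ubiquinone. They summed to 552 CPM in WT, 560, 558 and 556 CPM in Het (558 ± 1.93, SD, n = 3) and 558, 552 and 514 CPM in KO (541 ± 23.7, SD, n = 3). KO1 lay within the range of Het, KO2 was slightly below it and KO3 was lowest. By edgeR 0 of the 7 were called, 1 was lower at an unadjusted p below 0.05 and DESeq2 called 0. Over all genes tested 29.7% had such a p.

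The 29 accessory subunits surround that core and are needed for its stability. Their sum was 1452 CPM in WT, 1486 ± 9.75 CPM in Het and 1459.5 ± 84.8 CPM in KO (SD, n = 3 each), with log2 fold changes between -0.31 and 0.31. By edgeR 1 of the 29 was called lower and 0 higher, beside 3.21% and 4.01% of all genes tested. DESeq2 called 2 lower and 1 higher. Per length, complex I ranged from 3.90 CPM per kb of principal transcript in *Ndufb2*, the lowest, to 106 CPM per kb in *Ndufa7*, the highest of its core and accessory subunits. The rank of *Ndufb2* rests on a principal transcript of 4371 bases. By CPM *Ndufb4* was lower, with a Het mean of 13.7 against 16.3 for *Ndufb2*. *Ndufa7* was at 53.8 CPM in WT, 60.8, 56.9 and 53.1 CPM in Het and 56.4, 56.8 and 54.3 CPM in KO. Het and KO overlapped.

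*Ndufb10* (ENSMUSG00000040048.14; chr17:24722060-24724478, minus strand, GRCm38) encodes an accessory subunit of the membrane arm of complex I. It was measured at 57.9 CPM in WT, 68.2, 65.5 and 60.3 CPM in Het and 55.6, 53.2 and 50.5 CPM in KO. All KO libraries were below all Het libraries, and WT lay between the genotypes. KO averaged 82.1% of Het, a log2 fold change of -0.29 (SE 0.0559, edgeR adjusted p = 0.0263). It was called without Het3 or KO1, but by the same edgeR test with Benjamini-Hochberg adjustment the adjusted p was 0.0554 without Het1, 0.107 without Het2 and 0.0961 without KO2. Without KO3 the log2 fold change was -0.25, below the fold limit.

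Of the 20 tested genes nearest to *Ndufb10*, 10 on each side by start position, 7 were called lower (35.0%) and 0 higher by edgeR. Over all genes tested these shares were 3.21% and 4.01%. The median log2 fold change of the 20 was -0.26. Of the adjacent tested genes, *Snhg9* was among the 7, and *Rpl3l* on the other side was not called. The neighbours of the other called genes held fewer calls, 1 of 20 around *Ndufaf2* (*Rab3c*) and 2 of 20 around *Uqcrq* (*9530068E07Rik* and *Gdf9*), all of them lower in KO. These neighbours are named because they were called.

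*Ndufc2*, a membrane-arm subunit of complex I, was measured at 49.1 CPM in WT, 48.4, 50.5 and 49.3 CPM in Het and 44.8, 44.0 and 42.7 CPM in KO. The KO libraries were all lower, but the log2 fold change of -0.17 was under the fold limit (adjusted p = 0.0202, edgeR). *Ndufa12*, an accessory subunit near the NADH-oxidizing module, was at 62.1 CPM in WT, 62.8, 58.5 and 55.0 CPM in Het and 52.3, 46.2 and 43.6 CPM in KO. Its KO libraries too were below all Het libraries, with a log2 fold change of -0.31 and an adjusted p of 0.0501 by edgeR, just past the limit. Without KO1 the log2 fold change was -0.39 (adjusted p = 0.0264, edgeR), and *Ndufa12* was then called, while without KO3 it was -0.25 (adjusted p = 0.0889, edgeR). A processed pseudogene, *Gm15920*, matches 36.0% of its transcript at 99.5% identity and had 206 counts in WT, 416, 412 and 496 in Het and 544, 478 and 350 in KO, and its part was not tested.

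*Ndufb2*, a membrane-arm subunit, was not called by edgeR or DESeq2. Its level was 15.7 CPM in WT, 16.1, 16.7 and 16.1 CPM in Het and 18.2, 18.4 and 17.9 CPM in KO. The ranges did not overlap, with KO above Het. The log2 fold change of 0.16 was under the fold limit, with an adjusted p of 0.0668 by edgeR. *Ndufb2* shares 146 exon bases with *Braf* and 156 with *Gm16272* on the opposite strand, and 145 with *Gm42420* on its own. *Ndufs5*, chosen after its values were seen because DESeq2 called it, was at 26.5 CPM in WT, 28.2, 26.7 and 24.9 CPM in Het and 29.2, 37.3 and 32.4 CPM in KO. All KO libraries were above Het, with a log2 fold change of 0.31 and an adjusted p of 0.0826 by edgeR, and of 0.39 (adjusted p = 0.0438, edgeR) without KO1 and 0.21 (adjusted p = 0.176, edgeR) without KO2. A processed pseudogene, *BC002163*, matches 60.4% of the *Ndufs5* transcript at 99.4% identity and had 889 counts in WT, 729, 600 and 815 in Het and 971, 15 and 335 in KO. It was lowest in KO2, where *Ndufs5* was highest, and how reads were divided between the gene and its copy was not tested.

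The 7 assembly factors of complex I are chaperones of its construction and are not part of the finished enzyme. They were lower per length than most subunits, from 4.18 to 22.4 CPM per kb, against a median of 79.4 CPM per kb over the 84 nuclear genes with a mean of at least 1000 counts. *Ndufaf2* was the most abundant of them per length. By edgeR 1 of 7, *Ndufaf2*, was called lower and 0 higher, beside 3.21% and 4.01% of all genes tested.

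*Ndufaf2* (ENSMUSG00000068184.6; chr13:108002715-108158623, minus strand, GRCm38), which acts at a late step of complex I assembly and resembles *Ndufa12*, was measured at 17.7 CPM in WT, 16.9, 16.6 and 16.2 CPM in Het and 12.7, 12.7 and 13.7 CPM in KO. WT and the Het libraries lay together, and all KO libraries were lower. KO averaged 78.7% of Het, a log2 fold change of -0.35 (SE 0.0539, edgeR adjusted p = 0.0148). It was called without Het1, KO1 or KO3, while by edgeR the adjusted p was 0.0683 without Het2, 0.0541 without Het3 and 0.0545 without KO2. A long noncoding gene on the opposite strand, *B230220B15Rik*, shares 1955 of its 2978 exon bases (65.65%), and is not among the 48440 genes listed under that name or its identifier in GENCODE M21. Whether the counting used strand is not stated, so reads of the 2 genes cannot be told apart.

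*Ndufaf1*, which acts on the membrane arm during assembly, was at 13.6 CPM in WT, 13.4, 14.7 and 13.5 CPM in Het and 12.2, 11.5 and 11.0 CPM in KO. The KO libraries were all below Het, by a log2 fold change of -0.26 (adjusted p = 0.0530, edgeR), which missed both limits. DESeq2 called it lower.

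**Figure D3:**
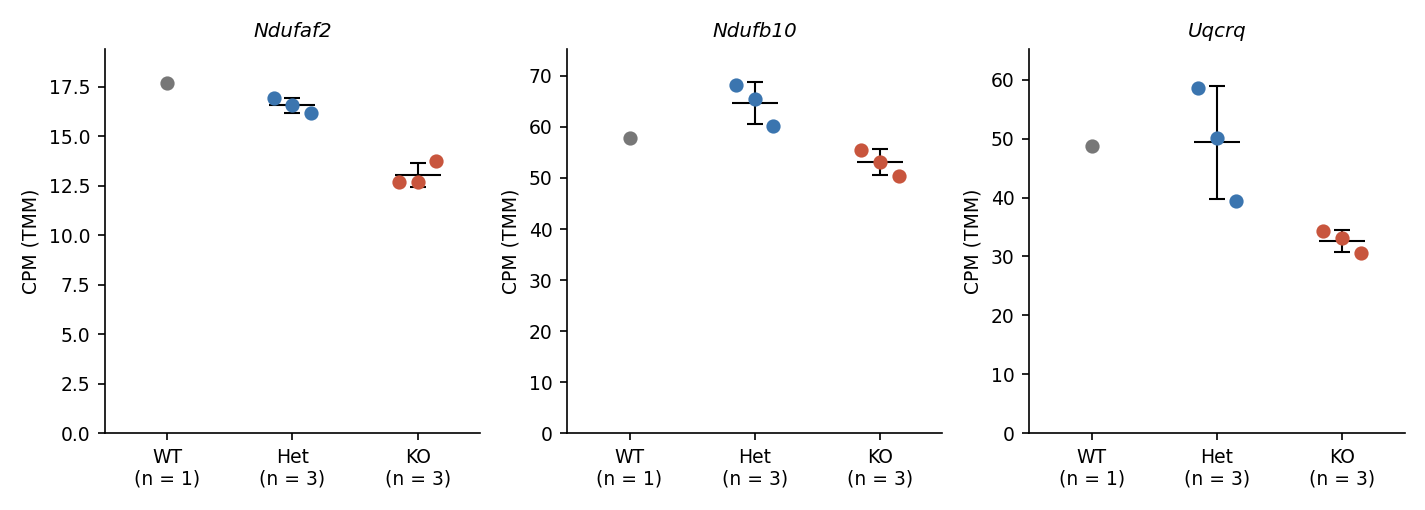
CPM of the 3 called genes *Ndufaf2*, *Ndufb10* and *Uqcrq* in each library (vertical axis from 0), with WT in grey, Het in blue and KO in red. Horizontal lines are means and bars are SD over 3 libraries, the KO points lie below all Het points in each plot, and for *Uqcrq* the Het points spread from 39.4 to 58.5 CPM.

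Complex II, succinate dehydrogenase, is the complex made of nuclear subunits alone, and it also belongs to the citric acid cycle. Its 4 genes summed to 474 CPM in WT, 484, 489 and 482 CPM in Het (485 ± 3.61, SD, n = 3) and 464, 456 and 416 CPM in KO (445 ± 26.1, SD, n = 3). All KO sums were below all Het sums, with KO3 the lowest. By edgeR 0 of the 4 were called, 1 was lower at an unadjusted p below 0.05 and DESeq2 called 1 lower. Over all genes tested 29.7% had such a p.

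*Sdhb*, the iron-sulfur subunit, was at 79.8 CPM in WT, 80.3, 86.0 and 83.0 CPM in Het and 78.0, 63.9 and 65.7 CPM in KO. KO1 was close to the Het libraries and the other KO pools were lower, with no overlap. The log2 fold change was -0.26 (adjusted p = 0.0735, edgeR). Without KO1 it was -0.36 (adjusted p = 0.0132, edgeR), and *Sdhb* was then called, while without KO2 it was -0.21 (adjusted p = 0.203, edgeR).

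*Sdhc*, a membrane anchor and the lowest of complex II per length at 30.1 CPM per kb, was at 102 CPM in WT, 108, 107 and 104 CPM in Het and 81.8, 102 and 62.4 CPM in KO. The KO pools were spread over a wider range than Het and all lay below it. The rank of *Sdhc* per length rests on a principal transcript of 3171 bases. By CPM *Sdhb* and *Sdhd* were lower, with Het means of 83.1 and 86.6 against 106 for *Sdhc*. *Sdha*, the flavoprotein and the highest per length at 71.9 CPM per kb, was at 205 CPM in WT, 209, 209.95 and 208 CPM in Het and 218, 206 and 203 CPM in KO. Het and KO overlapped, and the means were 209 ± 0.833 and 209 ± 7.93 CPM (SD, n = 3 each).

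Complex III carries electrons from ubiquinol to cytochrome c. Its 8 nuclear genes summed to 706 CPM in WT, 721, 716 and 699 CPM in Het and 721, 688 and 660 CPM in KO. The genotypes overlapped. Of the 8, edgeR and DESeq2 each called 1, *Uqcrq*, beside 7.22% of all genes tested by edgeR. *Uqcrh*, the hinge subunit and the highest per length at 183 CPM per kb, was at 96.3 CPM in WT, 102, 104 and 100.3 CPM in Het and 105, 97.97 and 95.3 CPM in KO. Here too the KO libraries lay on both sides of Het.

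*Uqcrq* (ENSMUSG00000044894.14; chr11:53427922-53430831, minus strand, GRCm38) encodes a small subunit that binds near cytochrome b and was the lowest of complex III per length, at 27.7 CPM per kb. It was measured at 48.7 CPM in WT, 58.5, 50.1 and 39.4 CPM in Het and 34.4, 33.1 and 30.6 CPM in KO. All KO libraries were below all Het libraries, but the Het libraries were spread widely and WT lay within their range. KO averaged 66.2% of Het, a log2 fold change of -0.60 (SE 0.136, edgeR adjusted p = 0.0398). The rank of *Uqcrq* per length rests on a principal transcript of 1521 bases. By CPM *Uqcr10* was lower, with a Het mean of 30.6 against 49.4 for *Uqcrq*.

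*Uqcrq* was called in 1 of the 6 fits lacking 1 library, that without Het3, where the log2 fold change was -0.73. By edgeR the adjusted p was 0.0533 without Het1, 0.124 without Het2, 0.0709 without KO1, 0.118 without KO2 and 0.0830 without KO3. The next tested gene on the chromosome, *Gdf9*, was also called lower, with a log2 fold change of -3.48. It is 1 of 2 called among the 20 nearest tested genes (10%), beside 7.22% of all genes tested.

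Complex IV, cytochrome c oxidase, passes electrons to oxygen, and several of its nuclear subunits exist as paralogs used in different tissues. Its 20 genes summed to 1637 CPM in WT, 1668 ± 42.7 CPM in Het and 1671 ± 137 CPM in KO (SD, n = 3 each). By edgeR 0 of the 18 tested were called and DESeq2 called 0. An unadjusted p below 0.05 was reached by 2 (11.1%), both lower, against 29.7% of all genes tested. *Cox8c* was at 0 counts in every library and *Cox7b2* at no more than 6 counts in any, and neither was tested.

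The ubiquitous forms were abundant. *Cox4i1*, which helps to start the assembly of the complex, was the highest per length at 309 CPM per kb and was measured at 236 CPM in WT, 245, 240.4 and 233 CPM in Het and 247, 229 and 226 CPM in KO. Het and KO overlapped. Its paralog *Cox4i2*, a form known from lung and from low oxygen, was at 94.2 CPM per kb, and its level was 64.3 CPM in WT, 72.7, 71.2 and 63.1 CPM in Het and 82.3, 68.5 and 61.4 CPM in KO. KO1 was the highest of the 7 libraries and KO3 the lowest.

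*Ndufa4l2*, the paralog of *Ndufa4* that is induced by low oxygen, was at 140.0 CPM in WT, 150.2, 152 and 129 CPM in Het and 221, 157 and 145 CPM in KO. KO1 stood apart, KO2 was slightly above Het and KO3 within its range, so that Het and KO overlapped. *Ndufa4* itself was at 96.2 CPM in WT, 101 ± 1.06 CPM in Het and 102 ± 4.77 CPM in KO (SD, n = 3 each). Per length the levels were 167 CPM per kb for *Ndufa4l2* and 165 CPM per kb for *Ndufa4*.

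The sum of the 10 endothelial genes moved with *Ndufa4l2* and *Cox4i2* in that KO1 was the highest library, by way of 1 gene of the 10, *Kdr*. The list summed to 398 CPM in WT, 415, 392 and 414 CPM in Het and 581, 484 and 502 CPM in KO. *Kdr*, the gene with the most counts and one also expressed by retinal progenitors, made up most of each sum, with 361 CPM in WT, 376, 366 and 363 CPM in Het and 562, 469 and 468 CPM in KO. Its log2 fold change was 0.44 (edgeR adjusted p = 0.0186). Of the 10 genes 7 were instead highest in Het3, among them *Cdh5*, which was at 0.988, 0.555 and 4.41 CPM in KO, and 0 of the 10 were at 0 counts in any library. The 12 microglial genes, *Csf1r* the one with the most counts, summed to 60.0 CPM in WT, 58.9, 55.3 and 80.7 CPM in Het and 76.4, 104 and 95.7 CPM in KO, with 11 of 12 highest in KO2. By edgeR 2 of the 12 were called higher and 0 lower, beside 4.01% and 3.21% of all genes tested, and DESeq2 called 10 higher. An unadjusted p below 0.05 was reached by 10 of the 12 (83.3%), all higher, against 29.7% of all genes tested. The part of these cells in the levels of *Ndufa4l2* and *Cox4i2* was not tested.

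The paralogs known from heart and skeletal muscle were low. *Cox6a2* had 5 counts in WT, 255 in Het1, 5 in Het2, 3 in Het3 and 3, 4 and 4 in KO, and *Cox8b* had 82 counts in Het1, 3 in KO1 and 0 in the other libraries. Both were high in Het1 alone, the library with the muscle genes, and are themselves in the list of muscle genes. Without Het1 neither has more than 5 counts in any library, so these data give no fold between genotypes. *Cox7a1*, the third gene of that kind, was at 0.540 to 0.948 CPM in all libraries, and Het1 did not stand apart.

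Of the corresponding forms of most tissues, *Cox6a1* was at 127 CPM in WT, 128 ± 6.95 CPM in Het and 126 ± 10.7 CPM in KO, and *Cox8a* at 127 CPM in WT, 141 ± 1.54 CPM in Het and 139 ± 15.2 CPM in KO (SD, n = 3 each). Per length they were at 222 and 251 CPM per kb, against 0.353 CPM per kb for *Cox6a2* and 0.201 CPM per kb for *Cox8b*, the lowest of the complex IV genes tested. Both low values rest on Het1, with 2.21 CPM per kb for *Cox6a2* and 1.34 for *Cox8b*. In the other libraries *Cox6a2* was at 0.0291 to 0.0617 CPM per kb and *Cox8b* at 0 to 0.0629. *Cox7a2* was at 141 CPM per kb, and *Cox7a2l*, a factor of supercomplexes, at 110 CPM per kb. *Cox7a2l* was at 119.99 CPM in WT, 123 ± 2.13 CPM in Het and 112 ± 6.43 CPM in KO (SD, n = 3 each), with all KO libraries below Het.

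*Cox6b1*, at 211 CPM per kb, was at 128 CPM in WT, 132 ± 2.83 CPM in Het and 129.7 ± 6.60 CPM in KO (SD, n = 3 each). Its testis form *Cox6b2* was at 7.84 CPM per kb and between 4.14 and 5.25 CPM in every library. *Cox7b*, on the X chromosome, was at 186 CPM in WT, 193, 112 and 189.99 CPM in Het and 169, 162 and 155 CPM in KO. Het2 stood below all other libraries, and the KO libraries lay between it and the other Het libraries.

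Complex V is the ATP synthase. *Atp5b*, the catalytic beta subunit, was the highest nuclear oxidative phosphorylation gene per length at 533 CPM per kb. *Atp5a1*, the alpha subunit, followed within the complex at 372 CPM per kb. Together they took 22.5% to 22.9% of all counts of the 92 nuclear genes in each library. *Atp5b* was at 1009.8 CPM in WT, 1023, 1026 and 1028 CPM in Het and 1079, 1032 and 953 CPM in KO. The Het libraries differed little, and KO1 and KO3 lay on either side of them.

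The 15 subunit genes of complex V summed to 3528 CPM in WT, 3598 ± 12.3 CPM in Het and 3525 ± 206 CPM in KO (SD, n = 3 each). By edgeR 0 of the 15 were called, 0 had an unadjusted p below 0.05 and DESeq2 called 0. Over all genes tested 29.7% had such a p. Het and KO overlapped in all 15, and in 12760 of all 20019 genes tested. Their log2 fold changes ranged from -0.10 to 0.05. *Atp5g1*, *Atp5g2* and *Atp5g3* encode the same mature subunit of the rotor ring. Per length they were at 13.7, 133 and 261 CPM per kb, with *Atp5g1*, whose principal transcript of 4715 bases is the longest of them, the lowest of complex V. The level of *Atp5g3* was 187 CPM in WT, 192 ± 6.09 CPM in Het and 186 ± 11.6 CPM in KO (SD, n = 3 each). The 2 factors named with complex V, *Atp5s* and *Atp5sl*, summed to 25.8 CPM in WT, 25.5 ± 1.17 CPM in Het and 26.3 ± 1.69 CPM in KO (SD, n = 3 each), with overlap in both.

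Of the 13 mitochondrial genes, 7 had a mean of at least 1000 counts: *mt-Co1*, *mt-Cytb*, *mt-Nd1*, *mt-Nd2*, *mt-Nd5*, *mt-Nd4* and *mt-Nd6*. They encode subunits that sit in the inner membrane, those of complex I (Nd), III (Cytb) and IV (Co). Per length they ranged from 867 CPM per kb in *mt-Nd4* to 3874 CPM per kb in *mt-Co1*, each above the highest nuclear oxidative phosphorylation gene, *Atp5b*. By edgeR 0 of the 7 were called, 0 had an unadjusted p below 0.05 and DESeq2 called 0, with log2 fold changes between -0.08 and 0.19. Over all genes tested 29.7% had such a p, and Het and KO overlapped in 12760 of 20019. Het and KO overlapped in all 7, with KO1 above and KO3 below every Het library in each of them.

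*mt-Co1*, the catalytic core of complex IV, took 33.5% of the mitochondrial counts in WT, 34.4%, 34.4% and 35.8% in Het and 37.0%, 36.3% and 36.1% in KO. The share was larger in each KO library than in each Het library, which by itself says nothing of the level. Its level was 5992 ± 409 CPM in Het and 6557 ± 1156 CPM in KO (SD, n = 3 each). *mt-Cytb*, the core of complex III, was at 3250 ± 139 CPM in Het and 3311 ± 514 CPM in KO, and *mt-Nd1*, a subunit at the ubiquinone site of complex I, at 3061 ± 83.3 CPM in Het and 2888 ± 503 CPM in KO (SD, n = 3 each). For each gene the difference between the genotypes was within the spread of the KO pools.

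*mt-Nd2* was at 1558 ± 37.8 CPM in Het and 1571 ± 254 CPM in KO, and *mt-Nd4* at 1213.5 ± 70.4 CPM in Het and 1280.1 ± 213 CPM in KO (SD, n = 3 each). Both encode proton-pumping subunits of complex I, as does *mt-Nd5*. *mt-Nd5* was at 1238 CPM in WT, 1646, 1546 and 1649 CPM in Het and 2019, 1973 and 1515 CPM in KO. KO1 and KO2 were above and KO3 below all Het libraries, and WT was the lowest. The log2 fold change was 0.19 and the adjusted p 0.3004 by edgeR, and without KO3 it was 0.31 (adjusted p = 0.0170, edgeR). Without KO1 it was 0.11 (adjusted p = 0.550, edgeR) and without KO2 0.13 (adjusted p = 0.583, edgeR).

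*mt-Nd6* is the one of these genes read from the opposite strand of the chromosome, and its last bases overlap *mt-Nd5* by 14. It was at 361 CPM in WT, 463, 449.6 and 457 CPM in Het and 577, 555 and 433 CPM in KO. The libraries stood in the same arrangement as for *mt-Nd5*. The log2 fold change was 0.19 (adjusted p = 0.259, edgeR), 0.31 without KO3 (adjusted p = 0.0102, edgeR) and 0.11 without KO1 (adjusted p = 0.497, edgeR). Its share of the mitochondrial counts was 2.84% in WT, 2.74%, 2.72% and 2.53% in Het and 2.84%, 2.93% and 2.97% in KO. Each KO share was above each Het share, and WT matched KO1.

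The other 6 mitochondrial genes, *mt-Co2*, *mt-Atp8*, *mt-Atp6*, *mt-Co3*, *mt-Nd3* and *mt-Nd4l*, were listed near 0. *mt-Co2* and *mt-Atp8* had 0 counts in all 7 libraries, *mt-Atp6* had 1 in WT, 6 in KO1 and 0 elsewhere, and *mt-Nd4l* had 1 in WT, 2 in KO1, 1 in KO2 and 0 elsewhere. *mt-Nd3* had 4 to 15 counts. *mt-Co3* had 50 counts in Het1, 3670 in Het3, 27 in KO1 and 0 in the other libraries. No genotype held these counts, and no fold between genotypes is given for the 6 genes.

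These genes are neighbours. On the chromosome they lie between *mt-Co1* and *mt-Nd4* without interruption by an abundant gene, from position 7013 of chrM (GRCm38), where *mt-Co2* begins, to 10173, where *mt-Nd4l* ends. Chromosome 1 holds a nuclear copy of that segment, in which 7 annotated genes of 4663 bases together in span (chr1:24611535-24616197) match the mitochondrial genes over 98.9% to 99.9% of the length of *mt-Co2*, *mt-Atp6*, *mt-Co3*, *mt-Nd3* and *mt-Nd4l*. The match covers 31.2% of *mt-Co1*, from 6390 on, and 63.6% of *mt-Nd4*, up to 11042. For 5 of the 7 copies the aligned bases are identical. Less alike copies lie on chromosome 2. There *Gm13340* matches *mt-Co1* over 1545 bases at 97.6% identity, and had 876 to 1320 counts in the 7 libraries. *Gm13341* matches *mt-Co2* over 684 bases at 95.9% and *Gm13339* matches *mt-Nd2* over 510 bases at 96.7%.

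**Figure D4:**
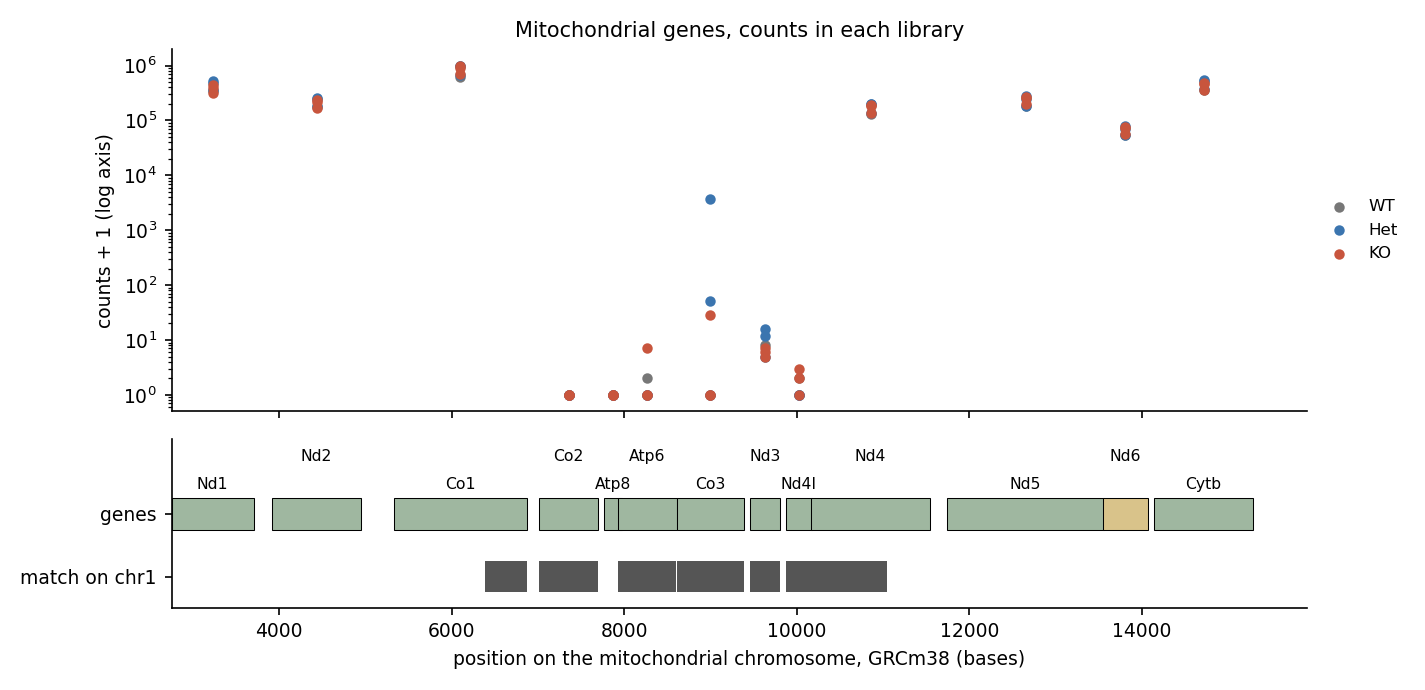
Counts of the 13 mitochondrial genes in each library on a log axis (top, count + 1, WT grey, Het blue, KO red, many points overlap) above a map of the genes on chrM in GRCm38 (bottom; green, plus strand; yellow, minus strand) with the parts that match annotated copies on chromosome 1 in dark grey. The 6 genes with a mean under 1000 counts lie between *mt-Co1* and *mt-Nd4*, and 5 of them lie within the matching parts.

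Reads from an identical stretch fit both places equally well, and how reads with several places were counted is not stated. Their part in the near absence of counts was not tested. The chromosome 1 copies themselves had few counts: *Gm28437*, that of *mt-Co3*, had 1158 in WT, 1527, 24 and 511 in Het and 1040, 26 and 28 in KO, and *Gm28661*, that of *mt-Co2*, at most 4 in any library. *Gm29216*, the chromosome 1 copy of *mt-Co1*, had 2890 counts in Het1 and at most 30 elsewhere. Some counts of this segment, those of *Gm28437*, *Gm29216* and *mt-Co3* among them, thus varied between libraries of a genotype far more than those of the abundant mitochondrial genes. Those of *Gm28438*, the copy of *mt-Nd3*, varied less, with 849, 519 and 522 in Het and 717, 627 and 433 in KO. The levels of *mt-Co1* and *mt-Nd4* are uncertain to the extent of the match. Without these 2 genes, a choice made after seeing the data, the log2 ratio of KO to Het of the mitochondrial sum was 0.03 and the difference in the ratio to nuclear counts 0.05.

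The sequence of *mt-Nd4l* shows how complete the match is. Its first 294 bases, from chrM:9877 to 10170, are identical in *Gm10222* on chromosome 1, and it had no more than 2 counts in any library. The annotated sequence of 297 bases, 5′ to 3′, is as follows.
mt-Nd4l: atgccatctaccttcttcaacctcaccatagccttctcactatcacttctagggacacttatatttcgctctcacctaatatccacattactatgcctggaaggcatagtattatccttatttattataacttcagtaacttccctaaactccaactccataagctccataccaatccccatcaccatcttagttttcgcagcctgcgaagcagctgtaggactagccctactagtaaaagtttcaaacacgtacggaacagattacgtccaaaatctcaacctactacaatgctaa

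The differences that do separate the chromosome 1 copies from the genes in their aligned bases are single bases. In *mt-Co1* and *Gm29216* it is A1066T and in *mt-Nd3* and *Gm28438* it is T3C, with the base of the mitochondrial gene first and positions counted from 1 at its 5′ end. The stretches below are chrM:6390-6433 and chrM:9459-9501 with their counterparts, 5′ to 3′, and the capital marks the base that differs.
mt-Co1: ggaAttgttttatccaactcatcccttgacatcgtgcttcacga
Gm29216: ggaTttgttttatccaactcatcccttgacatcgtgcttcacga
mt-Nd3: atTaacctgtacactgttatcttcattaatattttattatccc
Gm28438: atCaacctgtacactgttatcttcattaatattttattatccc
*Gm28438* had 433 to 849 counts in the 7 libraries, where *mt-Nd3* had 4 to 15. *mt-Co1* was abundant in all libraries, with 631304 counts in WT.

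Nuclear genes also share sequence. Of the 92, 13 have a pseudogene copy of at least 98% identity over 100 bases or more, 29 overlap exons of a gene on the opposite strand and 5 overlap exons on the same strand. Their counts are uncertain to that extent, since neither the strand nor the treatment of reads with several places is stated. Of the called genes, *Ndufaf2* is among those with an overlap on the opposite strand.

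The nuclear genes are scattered over 19 chromosomes, with the most, 10, on chromosome 7. Their promoters are known for binding sites of NRF1, of YY1 and of ETS factors such as GABPA. RefSeq promoter windows of 300 bases (GRCm38.p6) were at hand for 76 of the 92. The letters GCGCATGC, the core of the NRF1 site, were found on either strand in 12 (15.8%), against 3.05% of 27025 genes with a window. AAGATGGC, known from YY1 sites, was found in 11 (14.5%) against 3.19%, and CCGGAAG, known from ETS sites, in 17 (22.4%) against 9.93%. At least 1 of the 3 was present in 34 (44.7%) against 14.9%. A match of letters is a description and not a site of binding.

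The windows of *Ndufb10*, *Ndufaf2*, *Ndufc2*, *Ndufa12* and *Ndufb2* held none of the 3 motifs, and that of *Ndufaf1* held CCGGAAG. *Sdhb* had a pair of motifs in its window, which is shown for that reason. It spans chr4:140961021-140961320 (plus strand), with GCATGCGC, the reverse complement of the NRF1 letters, from base 197 and CCGGAAG from base 257, both in capitals.
Sdhb: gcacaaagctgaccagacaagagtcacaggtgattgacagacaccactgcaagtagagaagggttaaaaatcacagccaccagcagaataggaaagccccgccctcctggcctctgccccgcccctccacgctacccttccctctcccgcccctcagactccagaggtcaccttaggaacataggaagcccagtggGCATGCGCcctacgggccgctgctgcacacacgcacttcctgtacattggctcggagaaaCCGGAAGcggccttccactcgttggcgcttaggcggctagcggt

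Genes outside the name rule that serve the same machinery were counted in lists. Of 15 further subunits and electron carriers, *Cyc1* (cytochrome c1) the one with the most counts, 0 were called by edgeR and 0 by DESeq2. An unadjusted p below 0.05 was reached by 2 (13.3%), both lower, against 29.7% of all genes tested. Of 40 tested assembly factors outside the rule, with *Coa5* at the most counts, 3 were called lower and 0 higher by edgeR, beside 3.21% and 4.01% of all genes tested. The chaperones of the ATP synthase *Atpaf1* and *Atpaf2* were 2 of them. *Atpaf1* was at 21.4 CPM in WT, 20.4, 20.4 and 19.9 CPM in Het and 15.3, 15.2 and 15.6 CPM in KO, and *Atpaf2* at 15.7 CPM in WT, 16.4, 15.7 and 14.4 CPM in Het and 12.1, 11.4 and 11.7 CPM in KO.

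In both genes all KO libraries were below all Het libraries and the libraries of each genotype lay close together. The log2 fold changes were -0.40 for *Atpaf1* (SE 0.0411, edgeR adjusted p = 0.00579) and -0.40 for *Atpaf2* (SE 0.0654, edgeR adjusted p = 0.0162). *Atpaf1* was called in all 6 fits lacking 1 library, and *Atpaf2* in 4, with an adjusted p by edgeR of 0.0755 without Het2 and 0.0640 without KO2. *Lyrm7*, which delivers the iron-sulfur protein of complex III, was at 2.88 CPM in WT, 3.57, 3.005 and 1.92 CPM in Het and 1.26, 1.37 and 1.34 CPM in KO, a log2 fold change of -1.10 (adjusted p = 0.0298, edgeR). Its Het libraries were spread widely, and of the 6 fits it was called only without Het3 (adjusted p = 0.0196, edgeR), with an adjusted p by edgeR of 0.0521 without Het1, 0.106 without Het2, 0.0711 without KO1, 0.0961 without KO2 and 0.0577 without KO3.

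The mitochondrial ribosome translates the 13 mitochondrial messages and is built from nuclear proteins. Of its 76 genes tested, with *Mrps5* at the most counts, 5 were called lower (6 by DESeq2) and 0 higher by edgeR, where 3.21% of all genes tested were lower. At an unadjusted p below 0.05, 15 were lower and 2 higher, 22.4% against 29.7% of all genes tested, and the summed level was 2394 CPM in Het and 2325 CPM in KO. *Mrps10* (chr17:47368887-47381417) was at 16.8 CPM in WT, 18.4, 20.8 and 19.2 CPM in Het and 6.37, 6.71 and 6.67 CPM in KO. The KO libraries lay close together, far below the others. The log2 fold change was -1.56 (SE 0.0647, edgeR adjusted p = 0.000441), and *Mrps10* was called under all 16 alternatives.

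*Mrpl10*, *Mrps27*, *Mrps23* and *Mrps34* had log2 fold changes of -0.35, -0.40, -0.31 and -0.40. *Mrpl10* and *Mrps27* were called in all 6 fits lacking 1 library. *Mrps23* lost its call without Het2 and without KO2, with an adjusted p by edgeR of 0.0656 and 0.0501, and *Mrps34* without Het2, Het3 and KO2, with 0.106, 0.108 and 0.0973 by edgeR. All Het libraries were above all KO libraries in the 4 genes. *Mrps34* (chr17:24895116-24897502) was not among the 20 genes counted by start position around *Ndufb10*, but lies within the stretch that they span.

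Of the 19 genes that copy and transcribe mitochondrial DNA, with *Lonp1* at the most counts, 0 were called by edgeR and 0 by DESeq2. At an unadjusted p below 0.05, 3 were higher and 1 lower, 21.1% against 29.7% of all genes tested. Of the 20 genes that process and stabilize mitochondrial RNA, with *Grsf1* at the most counts, both tools called 0. At that p 3 were lower, 15% against the same 29.7%. Among 15 transcriptional regulators of mitochondrial genes, with *Yy1* at the most counts, *Esrrb* alone was called, higher in KO, beside 4.01% of all genes tested. *Esrrb*, an orphan nuclear receptor known from rods, was at 3.67 CPM in WT, 3.46, 3.42 and 3.55 CPM in Het and 8.30, 7.15 and 5.64 CPM in KO. All KO libraries were above the others, with a log2 fold change of 1.02 (SE 0.144, edgeR adjusted p = 0.0120), and by edgeR the adjusted p was 0.0638 without Het2 and 0.0509 without Het3.

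The ribosomal and transfer RNAs of the mitochondrion are short of the poly(A) tails by which mRNA libraries are made, and their counts were low for their abundance in cells. The 24 genes summed to 675 CPM in WT, 887, 808 and 832 CPM in Het and 992, 895 and 699 CPM in KO, most of it *mt-Rnr2* at 425 CPM in WT, 569, 520.3 and 537 CPM in Het and 653, 586 and 456 CPM in KO. As for the mitochondrial protein genes, WT was lowest, KO3 next and KO1 highest. Of 14 tested, *mt-Tl1* and *mt-Tl2* were called higher by edgeR, beside 4.01% of all genes tested.

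*mt-Tl1*, the leucine transfer RNA that follows *mt-Rnr2*, had 194 counts in WT, 288, 212 and 268 in Het and 421, 411 and 305 in KO. KO was higher in every library (log2 fold change 0.71, adjusted p = 0.0325, edgeR), but of the 6 fits lacking 1 library it was called only without KO3, where the log2 fold change was 0.85 (adjusted p = 0.0137, edgeR). *mt-Tl2* had 10 counts in WT, 2, 5 and 3 in Het and 11, 16 and 29 in KO, and of the 6 fits it was called only without KO1 (adjusted p = 0.0493, edgeR). By the same edgeR test the adjusted p without one other library was 0.0711 to 0.110 for *mt-Tl1* and 0.0824 to 0.145 for *mt-Tl2*.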

How the data were processed

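RNA from E16 retina was sequenced as stranded mRNA libraries. Per the labels and the methods, the authors aligned the reads with STAR to GRCm38 (mm10) and counted them with featureCounts, and the deposited values are whole-number counts per gene. Strand and multi-mapping settings are not given in the sources used here.

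Genes were kept by filterByExpr (20019 of 48440), normalized by TMM and fitted with edgeR 4.0.16 (quasi-likelihood) in R 4.3.3 over all 7 libraries, with a mean per genotype. A gene was called at adjusted p below 0.05 if its log2 fold change exceeded 0.263 in either direction. The script was tested on simulated data. Lengths, positions and overlaps come from GENCODE M21, a later release than the paper names for its alignments. Copies come from BLAST 2.17.0 (transcripts against those of all other genes) and promoters from RefSeq.

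Named are *Ptbp1*, *Ptbp2*, called genes, the 5 uncalled genes of lowest p, mitochondrial genes, extremes of level, paralogs, and called or abundant genes of the lists. Members and lists were chosen with earlier results of these data known.

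Alternatives were DESeq2 1.42.0, RLE and upper-quartile factors, other filters, Het and KO alone, a replicate block, omission of each library, other call rules, no mitochondrial genes, and other sums. The lists cover retina, muscle, lens, pigment, blood, microglia, endothelium and related mitochondrial genes.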

Additional observations from a re-analysis of the deposited data

How the results depend on the processing

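The 3 called genes were *Ndufaf2*, *Ndufb10* and *Uqcrq*. DESeq2 called 7 (2070 of all 29515 genes with a count) and edgeR's glmTreat, which tests against the fold limit, 0 (217 of 20019). Leaving out 1 library gave 0 to 5, with 386 to 1674 calls over all genes. Under RLE and upper-quartile factors and without the mitochondrial chromosome the same 3 were called. Without a filter, with at least 10 counts in every library and with Het and KO alone, *Ndufa12* was called with them, and with adjusted p alone *Ndufc2*.

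With the replicate block 4 genes were called, the 3 and *Ndufa12*. Deviations of libraries with the same number correlated at -0.206, 0.141 and -0.0822 across genes. Those of libraries with different numbers correlated at -0.294 to 0.266. The numbers thus showed no sign of pairing, but correlations over so few pools cannot exclude it. Under the block *Lyrm7*, *mt-Tl1*, *mt-Tl2* and *Mrps34* lost their calls. Of the called genes of the related lists, glmTreat kept *Mrps10* and *Esrrb* alone. *Atpaf1*, *Atpaf2*, *Lyrm7*, *Mrpl10*, *Mrps27*, *Mrps23*, *Mrps34*, *mt-Tl1* and *mt-Tl2* were not called, with edgeR adjusted p of 0.0866 to 0.516. DESeq2 called all of these except *mt-Tl2*, for which it gave no adjusted p.

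The log2 ratio of the nuclear sums was -0.13 as a mean of log2 fold changes over genes, which includes *Cox6a2* and *Cox8b* with their counts in Het1, and -0.07 to 0.01 without 1 library. That of the mitochondrial sums was -0.80 as such a mean, which includes *mt-Co3*, and -0.03 to 0.20 without 1 library. The difference in the ratio was -0.0515 with the mean of log2(CPM + 1), which also includes *mt-Co3*, and 0.03 to 0.18 without 1 library. The cause was not tested. The other recomputed values (9, 11 and 10) moved by less than the spread between replicates. Without the mitochondrial chromosome there is no value for its genes. The median log2 fold change over all genes was between -0.0069 and 0.0049 in every fit.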
